A study of Homo sapiens with 18 samples.

Results

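The myeloid granule proteins described here are the products of 10 genes: EPX, MPO, ELANE, PRTN3, AZU1, CTSG, LYZ, RNASE2, RNASE3 and PRG2. They were selected on earlier results of these data: EPX had the highest difference from DMSO of all tested HL-60 genes with either drug, and in MOLM-13 the NTX-301 samples of MPO and LYZ stood below the DAC samples. The other members were added as contents of the same granules. All 10 were listed in both lines, where the HL-60 files list 17110 genes and those of MOLM-13 list 17475. Because the choice used these values, member differences are given with their SE as a description, without p-values.

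RNA from 2 acute myeloid leukaemia cell lines was sequenced after 48 h (day 2) in 6-well plates. HL-60 is a promyelocytic line, and MOLM-13 is a monocytic line that carries an MLL fusion. Cells of each line received the solvent DMSO, decitabine (DAC, a cytidine analogue that depletes DNA methyltransferase) or NTX-301. Each of the 6 groups had 3 replicates, 18 samples in all. The labels give HL-60 a dose of 30 nM and MOLM-13 one of 15 nM, in wording that may cover both drugs or only DAC. Line and dose cannot be told apart, and the doses of the drugs may have differed.

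Granule proteins are made in bulk by immature myeloid cells and stored for release against microbes. Azurophil granules of neutrophil and monocyte precursors form at the promyelocyte stage. They hold myeloperoxidase, lysozyme and a family of serine proteases. The granules of eosinophils hold a peroxidase of their own, a basic protein that damages membranes, and a pair of secreted ribonucleases. Transcription factors of the C/EBP, GATA, PU.1 and MYB families are known to drive these genes. In bulk RNA, fewer cells of a type and less RNA per cell cannot be told apart.

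The deposited values are log2 normalized expression, one per gene and sample, and the lines were normalized apart, so no difference was tested between lines. Read depth is unknown. Correlations between replicates were at least 0.9998 in HL-60 and 0.9996 in MOLM-13. HOXA9 and MEIS1 were not listed for HL-60 and were listed for MOLM-13. Of 8 myeloid blast markers, 7 were listed in HL-60 and 6 in MOLM-13, with CD34 in neither. Of 10 monocyte and macrophage markers, 6 were listed in HL-60 and 7 in MOLM-13, with CD14, CD163 and MRC1 in neither. Nothing states that the replicates were separate cultures, so the errors and p-values measure the spread between these samples.

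Per length of transcript, the members spanned most of the expression range in both lines. Length was matched for all 10 members, and for 78.6% of HL-60 and 79.3% of MOLM-13 genes, so ranks among all genes cover only the matched ones. In HL-60 with DMSO, PRG2 stood highest at a log2 level per kb of 17.72 ± 0.027 (SD, n = 3), rank 8 of 13446 genes. PRG2 encodes the precursor of eosinophil major basic protein. MPO, myeloperoxidase, followed at 17.02 ± 0.039 and rank 12, and PRTN3, proteinase 3, at 16.04 ± 0.079 and rank 48. ELANE (14.38), CTSG (13.90), AZU1 (12.94), LYZ (11.66) and RNASE2 (9.99) came next. EPX (7.08) and RNASE3 (6.95) were lowest, near each other but without overlap between their samples (7.05 to 7.11 against 6.94 to 6.96). In MOLM-13 with DMSO the order per kb was PRTN3 (16.85), LYZ (15.86), AZU1 (15.08), ELANE (15.06), PRG2 (14.32), CTSG (13.62), RNASE2 (12.69), MPO (11.36), RNASE3 (9.44) and EPX (8.43). AZU1 (15.03 to 15.14) and ELANE (15.00 to 15.09) overlapped there, and no other neighbours in that order did. Each line thus had its own leading members: PRG2 and MPO in HL-60, PRTN3 and LYZ in MOLM-13.

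**Figure D1:**
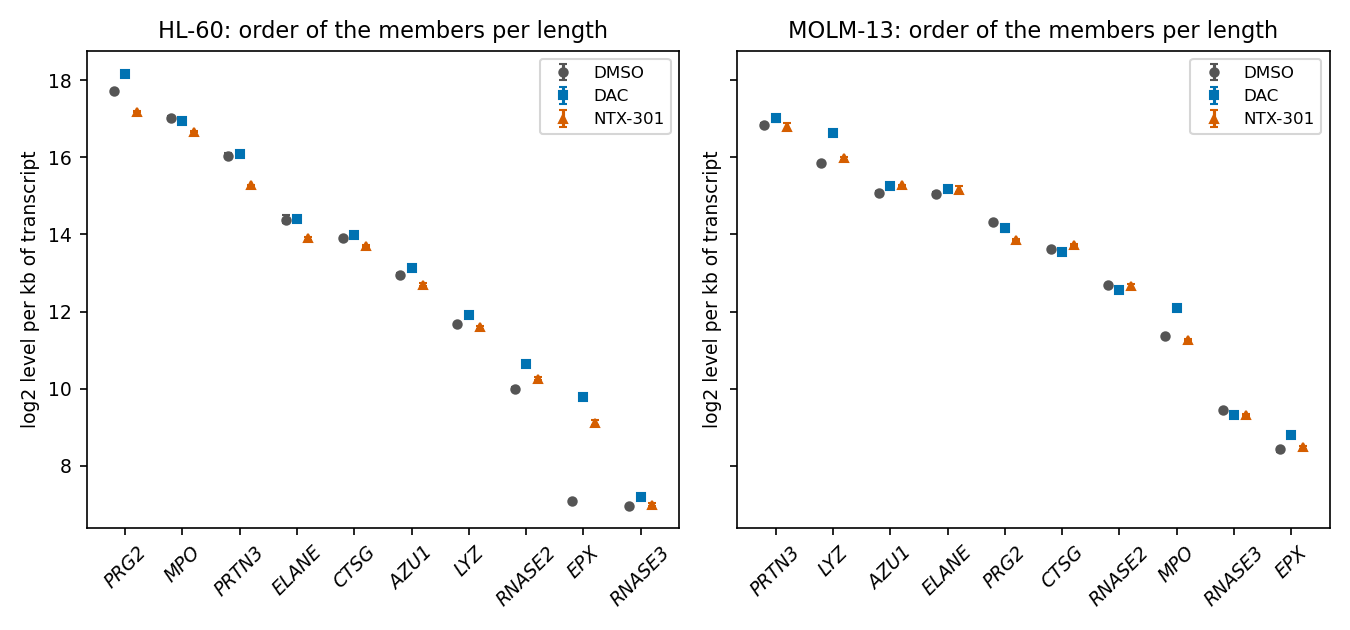
Log2 level per kb of transcript of each member (y axis) in HL-60 (left) and MOLM-13 (right), ordered by the DMSO mean; points are means of 3 samples and bars run from the lowest to the highest sample. The members run from PRG2 to RNASE3 in HL-60 and from PRTN3 to EPX in MOLM-13; the lines were normalized apart, so heights are not compared between panels.

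On the linear scale, the 10 members together made up 1.39% ± 0.032 (SD, n = 3) of the summed normalized values of HL-60 with DMSO. The share was 1.57% ± 0.013 with DAC and 1.04% ± 0.0081 with NTX-301, and the 3 groups did not overlap. MPO and PRG2 carried most of it: 0.698% and 0.503% with DMSO, 0.672% and 0.692% with DAC, and 0.557% and 0.354% with NTX-301. In MOLM-13 the share was 0.452% ± 0.0057 with DMSO, 0.599% ± 0.016 with DAC and 0.478% ± 0.018 with NTX-301. There, MPO held 0.0115% with DMSO. The summed value of these 10 members was therefore highest with DAC in both lines. In HL-60 that sum, carried mostly by MPO and PRG2, was lowest with NTX-301.

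Of the eosinophil proteins, EPX encodes eosinophil peroxidase (NCBI Gene 8288, chromosome 17), which makes hypobromous acid. Its log2 values in HL-60 were 8.49, 8.52 and 8.55 with DMSO, 11.25, 11.20 and 11.22 with DAC, and 10.53, 10.50 and 10.61 with NTX-301. All drug samples stood above all DMSO samples, and all DAC samples above all NTX-301 samples. The log2 difference from DMSO was 2.70 (SE 0.034; 6.52-fold) with DAC and 2.03 (SE 0.034; 4.09-fold) with NTX-301. DAC and NTX-301 differed by −0.67 (SE 0.034; NTX-301 minus DAC). Per kb, EPX stood at 7.08 with DMSO, 9.78 with DAC and 9.11 with NTX-301, and it was rank 9 of the 10 members in all 3 groups.

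PRG2 (Gene 5553, chromosome 11) differed in sign between the drugs in HL-60. Its values were 18.21, 18.26 and 18.23 with DMSO, 18.67, 18.64 and 18.71 with DAC, and 17.69, 17.69 and 17.72 with NTX-301. DAC samples were all above DMSO and NTX-301 samples all below it. The difference from DMSO was 0.44 (SE 0.021) with DAC and −0.53 (SE 0.021) with NTX-301, which leaves −0.98 (95% interval −1.02 to −0.93) between the drugs. The eosinophil peroxidase and the eosinophil basic protein thus stood on opposite sides of DMSO with NTX-301.

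RNASE2 and RNASE3 (Genes 6036 and 6037, chromosome 14) encode eosinophil-derived neurotoxin and eosinophil cationic protein. RNASE2 was 9.57, 9.56 and 9.63 with DMSO, 10.21, 10.23 and 10.26 with DAC, and 9.82, 9.90 and 9.84 with NTX-301 in HL-60. Its 3 groups did not overlap: DAC stood 0.65 (SE 0.033) and NTX-301 0.27 (SE 0.033) from DMSO. RNASE3 was 6.47, 6.48 and 6.48 with DMSO, 6.70, 6.69 and 6.78 with DAC, and 6.49, 6.50 and 6.56 with NTX-301. For RNASE3 the DAC difference was 0.25 (SE 0.035), and the NTX-301 difference of 0.037 (SE 0.035) had an interval from −0.038 to 0.11. The transcripts of these paralogs share 645 of 717 aligned bases (90.0%), so reads could have been assigned to either and the separate values are uncertain.

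The RefSeq promoter table (GRCh38.p14) held 5 of the 10 members: PRTN3, AZU1, CTSG, RNASE2 and RNASE3. EPX, MPO, ELANE, LYZ and PRG2 were not matched. The 250 bases before the start of the ribonuclease pair are shown because both genes stood in the same order across the HL-60 groups. The CG pairs that DNA methyltransferases modify, given in capitals, also differ in number between the printed stretches. The RNASE2 stretch is chr14:20955237-20955486 and the RNASE3 stretch chr14:20891135-20891384, both on the plus strand.

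RNASE2: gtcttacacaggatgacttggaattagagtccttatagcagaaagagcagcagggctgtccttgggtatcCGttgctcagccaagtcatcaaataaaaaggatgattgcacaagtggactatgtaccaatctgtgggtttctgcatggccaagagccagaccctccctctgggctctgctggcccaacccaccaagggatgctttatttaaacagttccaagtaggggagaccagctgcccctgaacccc

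RNASE3: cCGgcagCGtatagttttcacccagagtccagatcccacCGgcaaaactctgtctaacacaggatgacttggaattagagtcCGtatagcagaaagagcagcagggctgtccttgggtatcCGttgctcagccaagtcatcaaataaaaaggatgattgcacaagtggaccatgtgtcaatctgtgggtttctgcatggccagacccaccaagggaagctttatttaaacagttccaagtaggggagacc

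The printed stretch of RNASE2 holds 1 CG, at −180, and that of RNASE3 holds 5. The RNASE3 pairs at −249, −243 and −211 lie in its first 51 bases, before the part that aligns with the RNASE2 stretch. Within the aligned part RNASE3 has CG pairs at −168 and −129. Aligned with a shift of 51 bases, and with 34 bases in gaps inside the alignment, the 300-base windows (250 before to 50 after the start) of the pair share 243 of 249 paired bases (97.6%). Each window holds 1 match to TTNCNNAA, the loose form of a C/EBP motif, as TTGCACAA at position −145 of RNASE2 and −94 of RNASE3 from the start. That motif, searched on both strands, is in 36.8% of the 35116 windows of the table. Neither window holds GATAA (22.7% of windows), the core of a GATA motif, or TAACNG (20.8%), a narrow form of a MYB motif. Other forms of the MYB motif were not searched, so their absence cannot be read from this. These matches describe letters in the window and not binding.

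The eosinophil and basophil list held 15 other genes, of which 5 were listed in HL-60: GATA2, CLC, CPA3, CEBPE and MS4A2. With DAC 4 of the 5 rose and none fell, where 11.6% of all tested genes were called higher (limma, adjusted p under 0.05). With NTX-301 4 also rose and none fell, where 18.3% of genes were called higher. The median log2 difference of the 5 was 0.64 with DAC, where that of all genes was 0.00064, and 0.19 with NTX-301, where it was 0.00082. CLC, the Charcot-Leyden crystal protein of eosinophils and basophils, rose with DAC from 7.32 to 8.64 (difference 1.31, SE 0.053, adjusted p = 9.59e-10). With NTX-301 it stood at 7.51 (0.19, SE 0.053, adjusted p = 0.011), a call that was lost without DMSO replicate 3 (0.16, adjusted p = 0.056), without NTX-301 replicate 1 (0.16, adjusted p = 0.050) and with quantile normalization (0.13, adjusted p = 0.094). Between the drugs, CLC had a log2 difference (NTX-301 minus DAC) of −1.12 (SE 0.053, adjusted p = 5.66e-09).

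GATA2, a transcription factor of progenitors, mast cells and basophils, had the other order of the drugs. It rose from 10.97 to 11.75 with DAC (0.78, SE 0.030, adjusted p = 6.57e-10) and to 12.30 with NTX-301 (1.33, SE 0.030, adjusted p = 1.18e-12). It was higher with NTX-301 than with DAC (0.55, SE 0.030, adjusted p = 1.90e-08). CPA3, the carboxypeptidase of mast cells and basophils, shared that order, with rises of 0.64 (SE 0.043) and 0.86 (SE 0.043) and a drug difference of 0.22 (SE 0.043, adjusted p = 0.0015). CEBPE, a C/EBP factor of late granulocytes, rose by 0.19 and 0.14 (SE 0.032 each). MS4A2, a chain of the IgE receptor, gave 0.087 (adjusted p = 0.14) and 0.049 (adjusted p = 0.38). EPX, PRG2, RNASE2, RNASE3 and CLC therefore stood higher with DAC than with NTX-301, while GATA2 and CPA3 stood lower. CCR3, IL5RA, SIGLEC8 and PRG3, other eosinophil genes of the list, were not listed in HL-60. In MOLM-13, 9 of the 15 list genes were listed. With DAC 2 were higher and none lower there (15.4% and 21.2% of all tested genes), with a median of 0.055. With NTX-301 4 were higher and none lower (20.3% and 24.8%), with a median of 0.028.

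**Figure D2:**
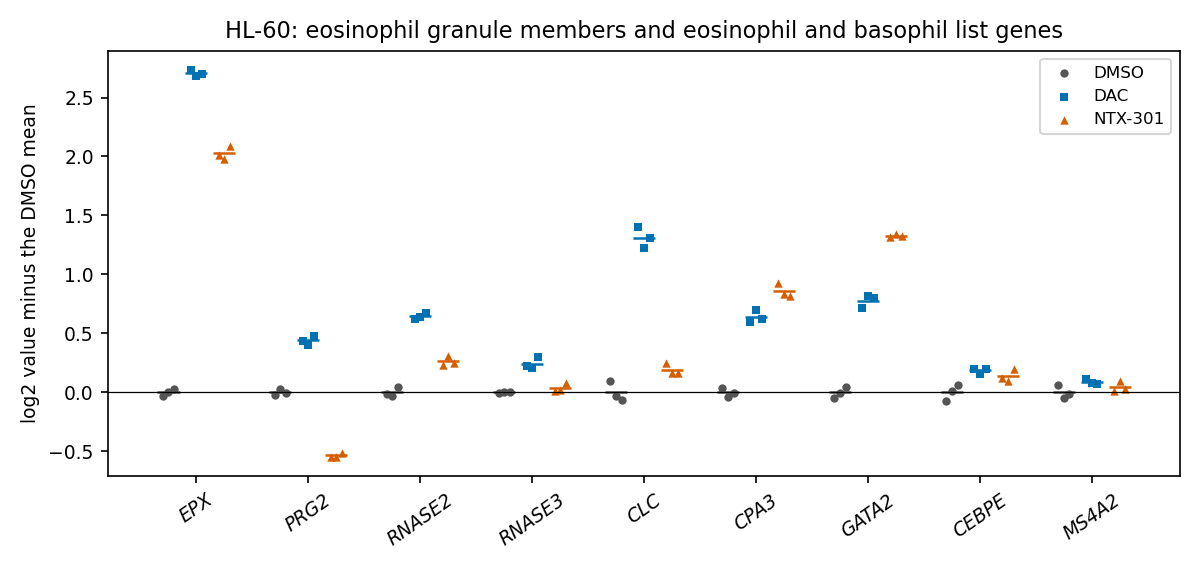
Log2 value of each HL-60 sample minus the DMSO mean of its gene (y axis) for 4 eosinophil granule members and the 5 listed genes of the eosinophil and basophil list; points are samples and short lines are group means. EPX, RNASE2, RNASE3, PRG2 and CLC are highest with DAC, GATA2 and CPA3 are highest with NTX-301, and PRG2 lies below DMSO with NTX-301.

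Among the azurophil members of HL-60, myeloperoxidase (MPO, Gene 4353, chromosome 17) makes hypochlorous acid. It was 18.67, 18.70 and 18.75 with DMSO, 18.63, 18.63 and 18.65 with DAC, and 18.34, 18.36 and 18.37 with NTX-301. The NTX-301 samples were below all others, and the DAC samples lay just under DMSO. The differences from DMSO were −0.069 (SE 0.019) with DAC and −0.35 (SE 0.019) with NTX-301, and NTX-301 minus DAC was −0.28 (SE 0.019). MPO is among the highest genes of HL-60. Under quantile normalization, which gives the highest ranks the same values in every sample, that last difference turned to 0.16 and the NTX-301 difference from DMSO became 0.

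ELANE, PRTN3 and AZU1 (Genes 1991, 5657 and 566) encode neutrophil elastase, proteinase 3 and azurocidin, an antimicrobial homologue without protease activity. They lie side by side on chromosome 19. PRTN3 was 16.03, 16.03 and 16.16 with DMSO, 16.14, 16.16 and 16.08 with DAC, and 15.28, 15.31 and 15.33 with NTX-301. The DAC and DMSO samples overlapped (difference 0.055, SE 0.033), and the NTX-301 samples stood below both, at −0.76 (SE 0.033) from DMSO. ELANE showed the same order, with 14.17, 14.22 and 14.37, then 14.28, 14.33 and 14.26, then 13.75, 13.79 and 13.80. Its differences from DMSO were 0.035 (SE 0.040) with DAC and −0.48 (SE 0.040) with NTX-301. AZU1 was 12.77, 12.78 and 12.85 with DMSO, 13.01, 13.02 and 12.96 with DAC, and 12.51, 12.60 and 12.53 with NTX-301. Its groups did not overlap, with 0.20 (SE 0.030) for DAC and −0.25 (SE 0.030) for NTX-301. All 3 adjacent genes were thus below DMSO with NTX-301, and none was with DAC.

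The stretches before the start of AZU1 (chr19:827587-827836) and PRTN3 (chr19:840749-840998), both on the plus strand of GRCh38.p14 in RefSeq, are shown because these neighbours stood below DMSO together with NTX-301. Capitals again mark CG pairs.

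AZU1: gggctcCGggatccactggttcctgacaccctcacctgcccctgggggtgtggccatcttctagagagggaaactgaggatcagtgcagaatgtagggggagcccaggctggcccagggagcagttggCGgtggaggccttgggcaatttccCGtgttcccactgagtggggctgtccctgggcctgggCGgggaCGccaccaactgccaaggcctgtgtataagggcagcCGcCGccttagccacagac

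PRTN3: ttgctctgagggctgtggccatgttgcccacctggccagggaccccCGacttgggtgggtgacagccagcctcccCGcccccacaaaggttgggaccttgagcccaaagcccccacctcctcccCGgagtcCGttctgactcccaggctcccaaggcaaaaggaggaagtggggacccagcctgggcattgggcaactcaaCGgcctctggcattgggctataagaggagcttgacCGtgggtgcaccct

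These stretches hold 7 CG pairs for AZU1 and 6 for PRTN3. Their 300-base windows hold 9 each, where the median over all 35116 windows is 14 and 96.0% hold at least 1. Both windows carry TTNCNNAA in the same form, TTGGGCAA, at −111 of AZU1 and −62 of PRTN3. PRTN3 also has GAGGAA, a core that PU.1 can bind, at −88 (27.9% of windows hold it), and the AZU1 window has none. The CTSG window has 3 CG pairs, 1 TTNCNNAA and 2 GAGGAA. No GATAA or TAACNG was found in any of the 5 members' windows, and other forms of the MYB motif were not searched.

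The genes beside the members are given for comparison. In the chromosome 19 cluster, PLPPR3 had HL-60 differences of −0.13 (adjusted p = 0.041) with DAC and −0.18 (adjusted p = 0.0046) with NTX-301. MED16, a Mediator subunit, fell by 0.15 (adjusted p = 0.0090) and 0.28 (adjusted p = 3.91e-05), and PTBP1, a splicing regulator, had −0.047 (adjusted p = 0.22) and fell by 0.075 with NTX-301 (adjusted p = 0.033). The PLPPR3 call with DAC was lost without DMSO replicate 2 or 3 or any DAC replicate, and the PTBP1 call without DMSO replicate 3 or NTX-301 replicate 1 or 2. CFD, which encodes complement factor D and adjoins ELANE, had −0.0089 (adjusted p = 0.92) with DAC and rose with NTX-301 (0.21, adjusted p = 0.0052), where ELANE stood at −0.48. Over the 26 protein-coding neighbours of all members that are not members themselves, 16 were listed in HL-60. With DAC 1 was higher and 5 lower, against 11.6% and 12.6% of all tested genes. With NTX-301 3 were higher and 8 lower, against 18.3% and 19.2% of all tested genes. EPX's nearest listed neighbour in HL-60, MKS1, gave 0.0082 (adjusted p = 0.89) with DAC and 0.13 (adjusted p = 0.0063) with NTX-301, beside 2.70 and 2.03 for EPX. SLC43A3, the transporter gene next to PRG2, gave 0.041 (adjusted p = 0.16) with DAC and fell with NTX-301 (−0.36, adjusted p = 1.05e-08), where PRG2 had −0.53. TSPOAP1, next to MPO, fell with both drugs (−0.30 and −0.41, adjusted p = 2.54e-05 and 5.92e-07). In MOLM-13, where 7 of the 26 neighbours were not listed, 1 was higher and 8 lower with DAC (15.4% and 21.2% of all tested genes), and 4 were higher and 9 lower with NTX-301 (20.3% and 24.8%).

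**Figure D3:**
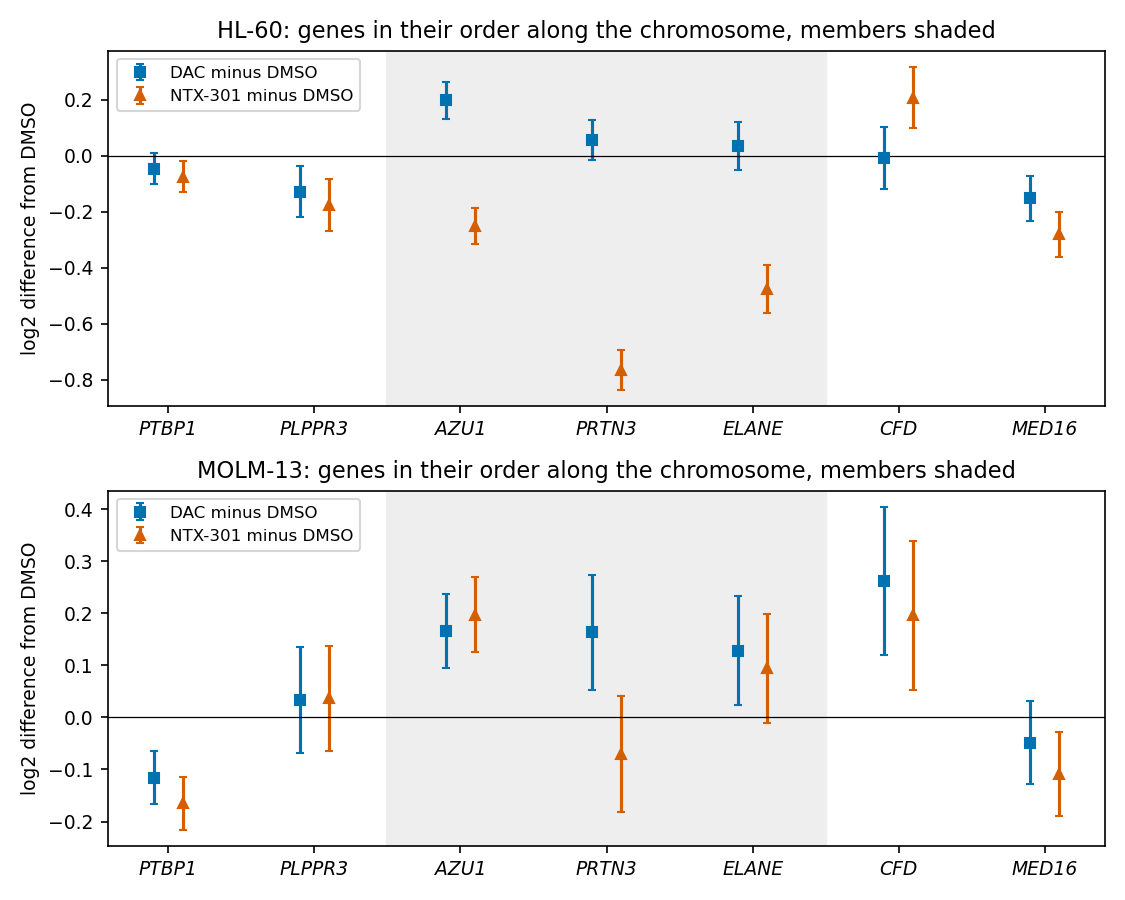
Log2 difference from DMSO (y axis) of the AZU1, PRTN3 and ELANE cluster (shaded) and the 2 genes on each side, in chromosome order, for HL-60 (top) and MOLM-13 (bottom); bars are 95% intervals from 3 samples a group. In HL-60 with NTX-301 the shaded genes and PTBP1, PLPPR3 and MED16 lie below 0 and CFD lies above it. In MOLM-13 the intervals of the shaded genes lie above 0 or include it. There, PTBP1 lies below 0 with both drugs and MED16 with NTX-301, and CFD lies above 0 with both.

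CTSG (Gene 1511, chromosome 14) encodes cathepsin G, and LYZ (Gene 4069, chromosome 12) encodes lysozyme, which cleaves bacterial cell walls. In HL-60, CTSG was 13.69, 13.72 and 13.77 with DMSO, 13.83, 13.75 and 13.85 with DAC, and 13.50, 13.50 and 13.55 with NTX-301. DAC overlapped DMSO (0.084, SE 0.028) and NTX-301 lay below (−0.21, SE 0.028). LYZ was 12.25, 12.29 and 12.29 with DMSO, 12.51, 12.50 and 12.57 with DAC, and 12.23, 12.17 and 12.22 with NTX-301. The 3 groups of LYZ did not overlap, with DAC at 0.25 (SE 0.027) and NTX-301 at −0.072 (SE 0.027) from DMSO.

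Counted over the members, 7 of 10 were called higher and 1 lower with DAC in HL-60, where 11.6% of all tested genes were called higher and 12.6% lower. With NTX-301, 2 were called higher and 7 lower, against 18.3% and 19.2%. The member medians were 0.22 and −0.23, beside all-gene medians of 0.00064 and 0.00082. These contrasts chose EPX, so nothing is read from the counts. Some of these calls were small and were lost under several of 16 alternatives: CTSG with DAC in 8, MPO with DAC in 4 and LYZ with NTX-301 in 9 (as low as −0.041 with quantile normalization). Among single samples, CTSG lost its call without DMSO replicate 1 or 2, DAC replicate 1 or 3, or NTX-301 replicate 1 or 2. MPO lost its call without DMSO replicate 3 or DAC replicate 1 or 2. LYZ lost it without DMSO replicate 2 or 3, DAC replicate 1 or any NTX-301 replicate.

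The summed level of the listed monocyte and macrophage markers stood above DMSO with both drugs in the same HL-60 samples. Their median log2 difference was 0.059 with DAC and 0.31 with NTX-301. With DAC 2 of the 6 listed were called higher and none lower, where 11.6% and 12.6% of tested genes were, and with NTX-301 4 and none, where 18.3% and 19.2% were. The log2 of their summed level ran from 10.01 to 10.09 with DMSO, 10.17 to 10.19 with DAC and 10.16 to 10.25 with NTX-301. Other lineages moved as well: the 3 listed erythroid and megakaryocyte markers gave 8.84 to 8.87, 9.24 to 9.26 and 9.43 to 9.44. For the 2 listed lymphoid markers the ranges were 8.16 to 8.25, 8.32 to 8.35 and 8.49 to 8.61. The 7 listed myeloid blast markers gave 14.74 to 14.79, 14.76 to 14.78 and 14.84 to 14.87. The part of any of these markers in the member values was not tested.

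**Figure D4:**
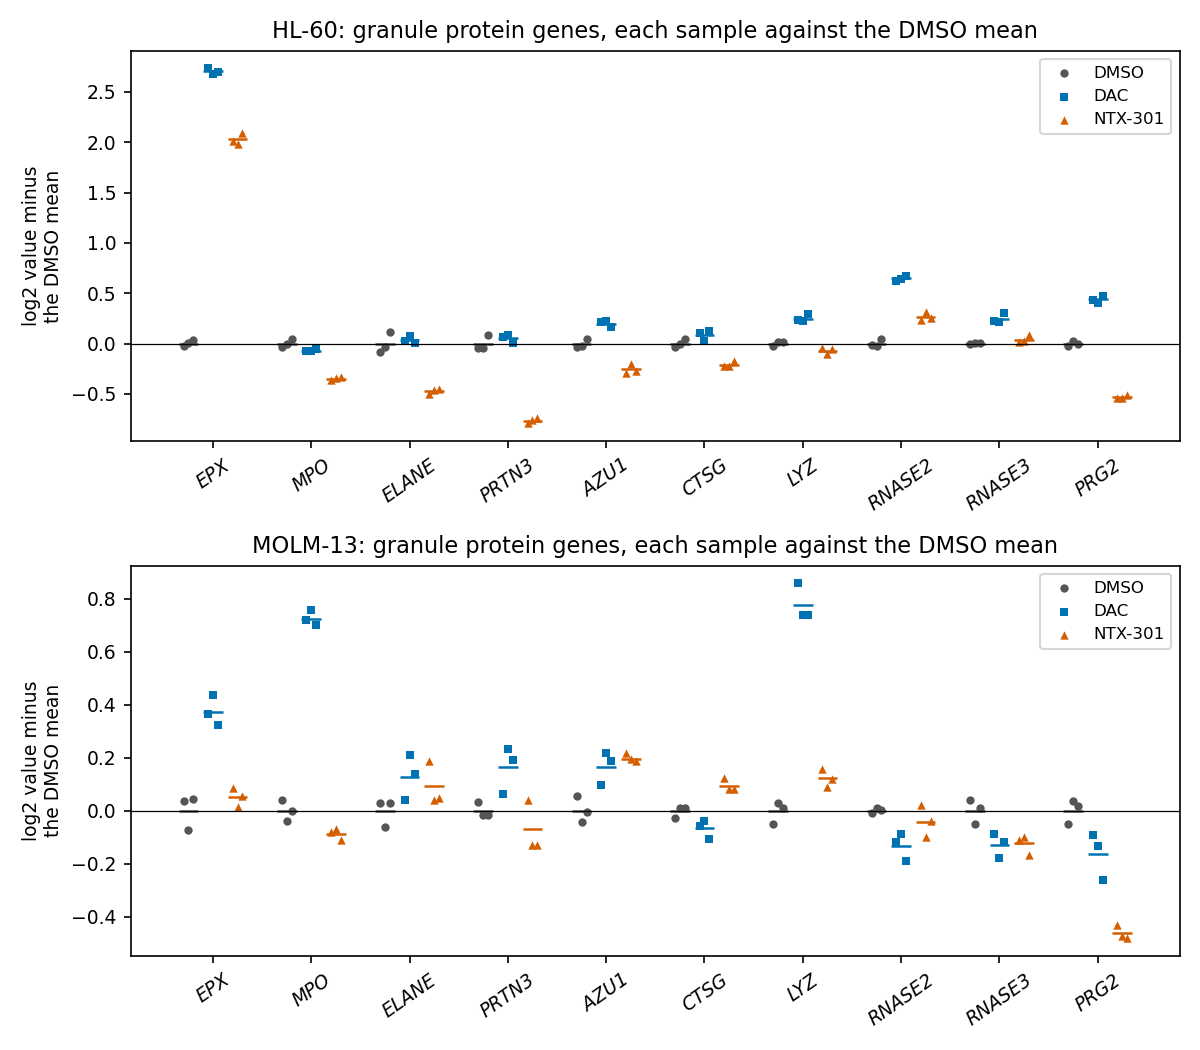
Log2 value of each sample minus the DMSO mean of its gene (y axis) for the 10 members in HL-60 (top) and MOLM-13 (bottom, with a narrower axis); points are samples and short lines are group means. EPX stands highest in HL-60 with either drug, while MPO and LYZ stand highest in MOLM-13 with DAC and lie near DMSO with NTX-301.

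In MOLM-13 the members that stood furthest from DMSO with DAC were LYZ and MPO. LYZ was 16.42, 16.50 and 16.48 with DMSO, 17.33, 17.21 and 17.21 with DAC, and 16.63, 16.56 and 16.59 with NTX-301. MPO was 13.08, 13.00 and 13.04 with DMSO, 13.76, 13.80 and 13.74 with DAC, and 12.96, 12.97 and 12.93 with NTX-301. In both genes the DAC samples stood above all others, and the NTX-301 samples stayed close to DMSO. From DMSO, LYZ differed by 0.78 (SE 0.036) with DAC and 0.12 (SE 0.036) with NTX-301. MPO differed by 0.72 (SE 0.026) and −0.087 (SE 0.026), the latter becoming 0.014 under quantile normalization.

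LYZ is also a product of monocytes, and monocyte and macrophage markers moved in the same samples. Of the 10 markers, 7 were listed in MOLM-13. With DAC 5 were higher and none lower, where 15.4% and 21.2% of tested genes were. With NTX-301 5 were higher and 1 lower, where 20.3% and 24.8% were. The log2 of their summed level ran from 13.47 to 13.58 with DMSO, 13.88 to 13.93 with DAC and 13.81 to 13.85 with NTX-301. CD14, CD163 and MRC1 were not listed. The 2 listed lymphoid markers gave log2 sums of 10.40 to 10.52, 10.69 to 10.76 and 10.79 to 10.84 with DMSO, DAC and NTX-301. For the 5 listed erythroid and megakaryocyte markers the groups overlapped (10.54 to 10.82, 10.50 to 10.75 and 10.58 to 11.00). The summed level of the 6 listed myeloid blast markers lay lower with the drugs (15.94 to 15.99, 15.83 to 15.88 and 15.91 to 15.92). Counted by gene they went mostly the other way, beside the same shares of tested genes. With DAC 3 were higher and 1 lower (median difference 0.14), and with NTX-301 4 were higher and 1 lower (median 0.15). The part of any of these markers in the LYZ and MPO values was not tested.

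EPX in MOLM-13 was 9.90, 9.79 and 9.91 with DMSO, 10.23, 10.30 and 10.19 with DAC, and 9.95, 9.88 and 9.92 with NTX-301. DAC stood apart (0.37, SE 0.046), and NTX-301 overlapped DMSO (0.053, SE 0.046, interval −0.048 to 0.15). These differences stand beside 2.70 and 2.03 in HL-60, and the contrast between lines was not tested. PRG2 was 14.78, 14.87 and 14.85 with DMSO, 14.74, 14.70 and 14.57 with DAC, and 14.40, 14.36 and 14.35 with NTX-301. Both drug groups lay below DMSO, at −0.16 (SE 0.040) and −0.46 (SE 0.040).

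The proteases of MOLM-13 stood closer together. AZU1 differed from DMSO by 0.17 with DAC and 0.20 with NTX-301 (SE 0.033 each), and ELANE by 0.13 and 0.094 (SE 0.048 each). PRTN3 gave 0.16 and −0.070 (SE 0.051 each). CTSG gave −0.066 and 0.094 (SE 0.026 each). RNASE2 lay slightly below DMSO with DAC (−0.13) and overlapped it with NTX-301 (−0.042, SE 0.035 each). RNASE3 lay below DMSO without overlap, at −0.13 and −0.12 (SE 0.048 each), and was not called with either drug. In MOLM-13, 5 members were called higher and 2 lower with DAC, where 15.4% of tested genes were higher and 21.2% lower. With NTX-301 3 were higher and 2 lower, against 20.3% and 24.8%. That total of 5 became 3 without DMSO replicate 1, where MPO and LYZ lost their calls. The PRTN3 call with DAC was lost in 6 of 16 alternatives: without DMSO replicate 2 or 3 or DAC replicate 2 or 3, without the mean-variance trend, and with quantile normalization (0.12). The member medians were 0.15 and 0.0051, beside all-gene medians of 0.0013 and 0.0034.

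Set against each other, the drugs separated all 10 members in HL-60. Every member stood below its DAC level in the NTX-301 samples there, with no overlap between the samples, while 15.4% of tested genes were called higher and 15.0% lower and the groups did not overlap for 44.4% of genes. The differences ran from −0.21 (RNASE3) through a median of −0.41 to −0.98 (PRG2), and PRTN3 (−0.82), EPX (−0.67) and ELANE (−0.51) followed PRG2. Every member kept this sign when each sample was left out in turn, and only MPO turned under another scaling, to 0.16 with quantile normalization. This contrast shares its samples with the 2 against DMSO and was partly known when the members were chosen.

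In MOLM-13, NTX-301 minus DAC was −0.81 (SE 0.026) for MPO, −0.66 (SE 0.036) for LYZ, −0.32 (SE 0.046) for EPX, −0.30 (SE 0.040) for PRG2 and −0.23 (SE 0.051) for PRTN3. CTSG alone was called higher (0.16, SE 0.026). Thus 5 members were called lower and 1 higher, where 4.41% and 3.01% of tested genes were. MPO and LYZ chose the set in this contrast, so the counts are a description. The PRTN3 call was lost in 5 of 16 alternatives: without DAC replicate 2, NTX-301 replicate 2 or NTX-301 replicate 3, without the mean-variance trend, and with quantile normalization (−0.12). The 4 others had intervals that stayed within −0.14 and 0.17: ELANE (−0.14 to 0.070), AZU1 (−0.041 to 0.10), RNASE2 (0.013 to 0.17) and RNASE3 (−0.099 to 0.11).

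**Figure D5:**
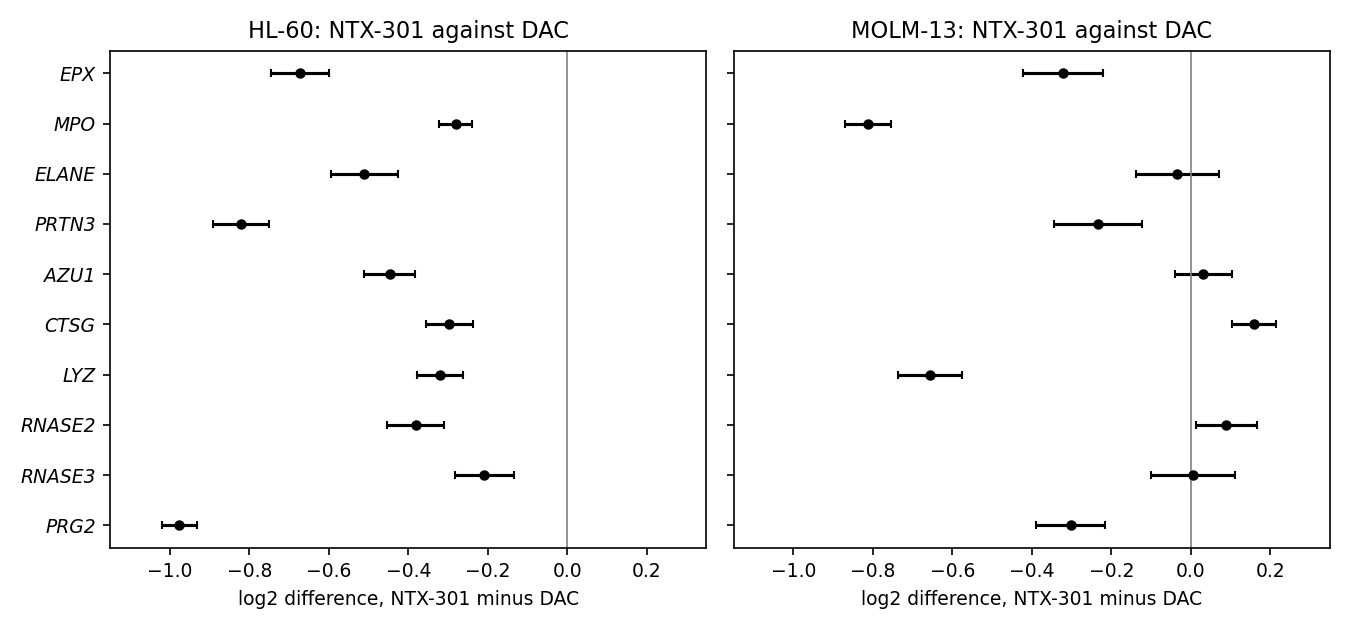
Log2 difference between NTX-301 and DAC (x axis, NTX-301 minus DAC) of each member in HL-60 (left) and MOLM-13 (right); points are differences of means of 3 samples and bars are 95% intervals. All 10 HL-60 points lie below 0, from −0.21 to −0.98, while in MOLM-13 MPO and LYZ lie lowest and CTSG lies above 0.

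The counts of the 7 lists of related genes stand beside these shares of all tested genes called higher and lower: 11.6% and 12.6% with DAC and 18.3% and 19.2% with NTX-301 in HL-60, and 15.4% and 21.2%, then 20.3% and 24.8%, in MOLM-13. Of 14 other contents of azurophil granules in HL-60, 6 were higher and 3 lower with DAC, and 8 higher and 3 lower with NTX-301, with medians of 0.079 and 0.083. PRSS57, a serine protease stored beside elastase, rose with both drugs (0.41 and 0.37, SE 0.042 each; adjusted p = 8.83e-06 and 7.86e-06), and its drug difference was −0.040 (adjusted p = 0.52). DEFA3, an alpha defensin with near-identical copies whose reads could not be separated with certainty, fell by 0.22 with DAC and by 0.53 with NTX-301 (adjusted p = 0.0065 and 1.76e-06). In MOLM-13 10 of the 14 were listed, of which 6 rose and none fell with DAC, and 5 rose and 1 fell with NTX-301. CTSD, the aspartic protease cathepsin D, rose by 0.45 and 0.33, and BPI, which binds endotoxin, by 0.42 and 0.30.

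Proteins of the later specific and gelatinase granules were mostly not listed. LTF, CAMP, LCN2, MMP8 and MMP9 were among the 11 of 19 not listed in either line. CHI3L1, a chitinase-like protein of those granules, rose in HL-60 from 10.97 to 11.38 with DAC and to 11.97 with NTX-301 (SE of the difference 0.034 each; adjusted p = 1.42e-06 and 1.10e-10). In MOLM-13 it rose by 0.61 and 0.55 (SE 0.028 each). Over the 8 listed genes of HL-60, 1 was higher and none lower with DAC, and 5 were higher and 1 lower with NTX-301, the latter being LYST, a regulator of granule size, which fell by 0.62 (SE 0.025, adjusted p = 3.09e-10). In MOLM-13 6 were higher and none lower with DAC, and 4 and none with NTX-301.

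Genes that pack and process granule proteins included SRGN, serglycin, the proteoglycan that retains proteases in granules. In HL-60 SRGN rose by 0.22 with DAC and fell by 0.40 with NTX-301 (SE 0.020 each; adjusted p = 4.91e-06 and 4.49e-09), which leaves −0.62 between the drugs. That is the order PRG2 and AZU1 showed. Of the 15 genes of this list in HL-60, 5 were higher and 1 lower with DAC, and 2 higher and 4 lower with NTX-301. In MOLM-13 3 were higher and 5 lower with DAC, and 2 and 7 with NTX-301. HAX1, mutated in congenital neutropenia, fell there by 0.23 and 0.32.

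Of the protease inhibitors, CST3 (cystatin C) rose by 0.24 with DAC and 0.52 with NTX-301 in HL-60 (SE 0.033 each), and SERPINB8 rose with DAC (0.28, adjusted p = 2.93e-05). The 9 listed inhibitors of HL-60 counted 3 higher and none lower with DAC, and 2 and 2 with NTX-301. In MOLM-13 the counts over 7 were 4 and none, then 2 and 1, and SERPINB10 rose with DAC (0.36, adjusted p = 0.0011). Relatives of the members' enzyme families numbered 17, of which HL-60 listed 4 and MOLM-13 listed 6. With DAC 1 and none of them rose, with NTX-301 2 and 2, and none fell.

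Among 15 regulators of granule genes, 13 were listed in HL-60: 3 were higher and 2 lower with DAC, and 5 higher and 5 lower with NTX-301. EGR1, a factor of monocytic differentiation, fell with NTX-301 by 0.97 (SE 0.036, adjusted p = 2.13e-10) and had −0.063 with DAC (adjusted p = 0.24). ID2, an inhibitor of helix-loop-helix factors, fell by 0.18 with DAC and rose by 0.54 with NTX-301 (SE 0.036 each). In MOLM-13, with 14 listed, 7 rose and 3 fell with DAC, and 4 rose and 4 fell with NTX-301. IRF8, a monocyte lineage factor, fell there by 0.22 and 0.46 (SE 0.028 each), and CEBPE of the eosinophil list rose by 0.66 (SE 0.062) and 0.30 (SE 0.062).

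Over all 106 genes of these 7 lists, 68 were listed in HL-60. With DAC 23 were higher and 6 lower (11.6% and 12.6% of all tested genes), and with NTX-301 28 and 15 (18.3% and 19.2%). Between the drugs 16 were higher and 20 lower with NTX-301 (15.4% and 15.0%). In MOLM-13, with 69 listed, the counts were 28 and 8 (15.4% and 21.2%) with DAC and 23 and 13 (20.3% and 24.8%) with NTX-301. Between the drugs they were 3 and 10 (3.01% and 4.41%). The MOLM-13 total of 13 between the drugs became 4 without NTX-301 replicate 3 and 6 without NTX-301 replicate 2.

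The genes whose HL-60 values over 9 samples were most like those of EPX, among 288 others with a mean of at least 5 and a range of group means of at least 0.5, were IKZF3 (Pearson r = 0.997), HK3 (0.995) and CDH24 (0.993). IKZF3 encodes a lymphoid zinc finger factor, HK3 a hexokinase of myeloid cells and CDH24 a cadherin. Their differences from DMSO were 1.38 and 1.03, 1.75 and 1.16, and 0.74 and 0.59 for DAC and NTX-301. In MOLM-13, of 282 such genes, LYZ (0.957), NAV3 (0.948) and ORM1 (0.926) were most like MPO, and NAV3 (0.976), AGT (0.969) and ORM1 (0.964) were most like LYZ. The samples form 3 groups, so these coefficients describe the order of the groups more than the samples within them.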

How the data were processed

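RNA of 18 samples (2 cell lines, 3 groups of 3 each) was sequenced from stranded total RNA libraries. The submitters' processing notes name FastQC, Trimmomatic 0.38, HISAT2, StringTie and hg19. The authors deposited 1 normalized log2 value per gene and sample; the unit is read from the values, and the method of normalization is not given in the sources used here. Low genes vary little: in HL-60 the highest and lowest of 9 samples lay a median of 0.020 apart for genes whose mean was under 3, and 0.21 apart at 8 to 12 (0.027 and 0.26 in MOLM-13), so differences of low genes may be compressed; no source states whether values were shrunk. Genes were used by symbol and NCBI Gene ID as in the files.

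A gene was tested where 3 or more samples of the line reached a linear value of 1 (17046 genes in HL-60, 17475 in MOLM-13). The 9 samples of a line entered 1 fit in limma 3.58.1 (R 4.3.3; lmFit, eBayes with trend, two-sided), with Benjamini-Hochberg adjustment over all tested genes and a threshold of 0.05. The scripts were tested on simulated data. Levels per kb used the longest matched transcript.

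The members and lists were chosen with earlier results of these data known. Named genes are all members, the 2 most changed called genes per list and line, the 2 neighbours on each side in the RefSeq table, and the 3 genes most like EPX, MPO or LYZ. CPA3, CEBPE and MS4A2 in HL-60 were named after their values were seen, to account for a short list. Alternatives changed the scaling, variance model, filter, samples and replicate block; those for named genes other than members were added after seeing the data.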

Additional observations from a re-analysis of the deposited data

Results flagged for a closer look

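Every drug sample stood on the other side of its DMSO or DAC samples in the opposite line for 10 pairs of values, and none of these differences between lines was tested, because the lines were normalized apart. For DAC minus DMSO, in HL-60 and then MOLM-13, the log2 differences were −0.0693 and 0.7244 for MPO, 0.647 and −0.1318 for RNASE2, 0.245 and −0.1288 for RNASE3, and 0.4428 and −0.1619 for PRG2. The eosinophil basic protein and both ribonucleases thus stood above DMSO in HL-60 and below it in MOLM-13. For NTX-301 minus DMSO the pairs were −0.475 and 0.0942 for ELANE, −0.2502 and 0.1968 for AZU1, −0.2131 and 0.0937 for CTSG, −0.0719 and 0.1227 for LYZ, and 0.037 and −0.123 for RNASE3. The azurophil members among these stood below DMSO in HL-60 and above it in MOLM-13. For NTX-301 minus DAC the pair was −0.297 and 0.1594 for CTSG. ELANE in MOLM-13, RNASE3 in MOLM-13 with either drug and RNASE3 in HL-60 with NTX-301 missed the limma threshold. The last of these turned to −0.0043 under quantile normalization, and the LYZ value in HL-60 lost its call in 9 of 16 alternatives.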

How the results depend on the processing

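For the members, 60 differences were recomputed under 16 alternatives each: 900 of 960 values stayed on their side of the threshold, 42 lost a call, 16 gained one, and 2 called values changed sign. Both of the latter came from quantile normalization: MPO for NTX-301 minus DAC in HL-60 (0.16) and for NTX-301 minus DMSO in MOLM-13 (0.014). Another 11 values, of 8 differences that had missed the threshold, crossed 0, the largest in size being RNASE2 for NTX-301 minus DMSO in MOLM-13 (0.030, quantile normalization). The number of members called kept within 1.5 times its value except for NTX-301 against DMSO in MOLM-13, which was 5 and ran from 3 to 5 when samples were left out in turn. The number of other granule genes called for NTX-301 against DAC in MOLM-13 was 13 and ran from 4 to 15 in the same way. With the replicate block the members called numbered 8 (DAC against DMSO), 9 (NTX-301 against DMSO) and 10 (NTX-301 against DAC) for HL-60, and 7, 5 and 6 for MOLM-13, as without it. Same-numbered samples had deviations that correlated above 0.1 in 1 of 9 pairs in each line (range −0.057 to 0.12 and −0.16 to 0.11). Whether same-numbered samples were handled together is not stated, and this check cannot exclude it. Of 2445 values of other named genes, 2356 stayed on their side of the threshold, 61 lost a call, 28 gained one and none changed sign while called, although 53 that had missed the threshold crossed 0. Depth is unknown, so precision rests on 3 samples a group.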
